A study of Mus musculus with 24 samples.

Results

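The genes described here encode the proteins of the mitochondrial ribosome. They were chosen by name and level: every protein-coding gene of the deposited count table whose mouse symbol begins with Mrpl (large subunit) or Mrps (small subunit) followed by a digit, at a mean of 1 or more CPM (the count in a library scaled to a fixed library size, so that libraries of unequal depth can be compared) over 24 cerebellum libraries. This gave 77 of the 43430 genes in the table, 48 with an Mrpl and 29 with an Mrps symbol, and all 77 were among the 15300 genes with enough counts to be tested. The choice used the level over all libraries and no difference between groups.

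RNA was sequenced from whole cerebellum of mice aged about 7 weeks, in 4 genotype groups of 6 animals, 3 males and 3 females each. The groups were cKO (a conditional knockout), cKO+NDI1 (the knockout with the NDI1 transgene), NDI1 control (the transgene without the knockout) and Cre control (neither). The study's title names a brain model of mitochondrial complex I dysfunction. In the published model the deleted gene is Ndufs4, an accessory subunit of complex I, removed by Nestin-Cre, which acts in neural progenitors, and NDI1 is the yeast NADH dehydrogenase, a single protein that oxidises NADH without pumping protons; the labels name neither the gene nor the driver. Vessels and microglia arise outside that lineage and are part of the tissue sequenced.

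The mitochondrial ribosome reads the few messenger RNAs made from mitochondrial DNA, all of which encode subunits of complex I, complexes III and IV and the ATP synthase. Its ribosomal RNAs come from mitochondrial DNA, whereas every one of its proteins is encoded in the nucleus, made in the cytosol and imported. Some of these proteins descend from bacterial ribosomal proteins, others were gained in the mitochondrial lineage, and recessive mutations of several, among them MRPS22, MRPS16, MRPL3 and MRPL44 in humans, cause combined deficiencies of the respiratory chain.

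By the known structure of the particle, 50 of the 77 belong to the large subunit and 26 to the small. Mrps30 and Mrps18a sit in the large subunit despite their names. Mrps36, the remaining member, is now known as a component of the 2-oxoglutarate dehydrogenase complex. A bacterial counterpart exists for 44 members, and 32 are specific to mitochondria.

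Promoters of these genes held 3 known motifs more often than promoters at large. RefSeq promoter windows on GRCm38.p6, from 250 bases before to 50 bases after the annotated start, matched 68 of the 77 genes and gave 74 windows. The windows were searched on both strands for the core motifs of 3 factors known to act on nuclear genes of mitochondria: GCGCATGCG for NRF1, CCGGAAG for the ETS family, to which GABPA belongs, and AAGATGGC for YY1. In member windows no match of 1 motif overlapped a match of another. The ETS motif was in 25 of the 74 windows (33.8%), against 8.86% of all 32851 promoter windows and 15.4% of the 14804 windows of genes tested here. The YY1 motif was in 12 (16.2%), against 2.75% of all windows and 3.90% of those of genes tested. The NRF1 motif was in 7 (9.46%), against 1.75% of all windows and 3.21% of those of genes tested. At least 1 of the 3 was present in 37 member windows (50%), against 12.5% of all windows. That last share was not computed over windows of genes tested, where each motif was more common than in all windows. Base composition did not stand out, with a median of 58.8% G and C in member windows against 60.7% in windows of genes tested. A match describes letters only and shows no binding.

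The promoters of 6 members or pairs are printed from the strand of the gene, with motif letters in capitals; they cover 130 bases before to 20 bases after the start, except the last. Mrpl41 (chr2:24975079-24975228, minus strand) and Mrpl23 (chr7:142532902-142533051, plus strand) are the members with the highest and the lowest level per length. Mrpl9 (chr3:94443206-94443355, plus strand) shows the NRF1 motif at 2 overlapping matches, 1 on each strand, which together form a palindrome. Mrpl58 (chr11:115403622-115403771, plus strand) shows the ETS motif at 2 places, and Mrpl36 (chr13:73330879-73331028, plus strand) shows the YY1 motif read on the opposite strand. The last (chr7:78783069-78783150, plus strand) is the stretch between Mrps11 and Mrpl46, from 62 bases before to 20 bases after the Mrps11 start.
Mrpl41: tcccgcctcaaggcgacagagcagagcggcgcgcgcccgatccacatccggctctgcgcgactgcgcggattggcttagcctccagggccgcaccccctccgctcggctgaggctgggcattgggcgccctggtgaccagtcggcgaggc
Mrpl23: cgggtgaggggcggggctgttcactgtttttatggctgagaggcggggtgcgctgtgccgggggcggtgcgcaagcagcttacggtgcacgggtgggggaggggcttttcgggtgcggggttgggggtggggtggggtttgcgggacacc
Mrpl9: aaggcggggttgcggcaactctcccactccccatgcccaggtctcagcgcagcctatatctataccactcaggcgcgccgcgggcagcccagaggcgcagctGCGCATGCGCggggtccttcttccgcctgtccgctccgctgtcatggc
Mrpl58: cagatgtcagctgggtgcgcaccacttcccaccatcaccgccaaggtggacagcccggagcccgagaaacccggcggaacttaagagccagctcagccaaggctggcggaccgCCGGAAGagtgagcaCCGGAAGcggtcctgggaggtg
Mrpl36: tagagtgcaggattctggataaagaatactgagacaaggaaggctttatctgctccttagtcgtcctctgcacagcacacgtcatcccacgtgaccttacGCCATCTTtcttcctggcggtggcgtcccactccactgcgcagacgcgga
Mrps11 and Mrpl46: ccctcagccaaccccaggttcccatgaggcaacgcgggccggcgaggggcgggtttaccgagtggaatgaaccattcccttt

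Many members start head to head with another gene. An opposite-strand start lay within 500 bases upstream of 23 of the 68 members with a promoter entry (33.8%), against 1966 of 11547 genes tested and 10.9% of all 27025 genes with an entry. Mrps11 (small subunit) and Mrpl46 (large subunit) are such a pair, with RefSeq starts 42 bases apart. By these starts a single short stretch of DNA lies upstream of a protein of each subunit. Other partners were Twnk, the mitochondrial DNA helicase, 116 bases from Mrpl43; Ndufb5, a complex I subunit, 308 bases from Mrpl47; Sars2, the mitochondrial seryl-tRNA synthetase, 147 bases from Mrps12; and Mitd1 66 bases from Mrpl30.

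Library totals ran between 7584374 and 19785264 counts, and a member had a median of 703 counts per library, with means from 28.8 (Mrpl53) to 1735 (Mrpl12). Levels are CPM on TMM-scaled library sizes. In the whole table, 4.87% of genes tested were called in cKO against Cre control. Ndufs4, the gene deleted in the published model, ran 67.1, 93.0 and 133 CPM (lowest, median, highest) in cKO and 77.1, 100 and 120 CPM in cKO+NDI1, against 106, 123 and 199 CPM in NDI1 control and 104, 140 and 164 CPM in Cre control. Its log2 fold change in cKO against Cre control was -0.47 ± 0.16 (SE; edgeR's quasi-likelihood test, adjusted p = 0.0939); the counts cover the whole gene, of which the model deletes a part, so they check the labels only in part. Defining markers of Purkinje cells, granule neurons, astrocytes and oligodendrocytes were all detected. The summed CPM of 5 Purkinje markers was 7740 to 8513 in cKO, below its 8711 to 9668 in Cre control. Groups were fully apart in this comparison in 2.69% of single genes tested, and that share was not computed for sums of 5 genes. None of the 5 Purkinje markers was called by itself in edgeR. In whole tissue, fewer cells of a type and less RNA per cell cannot be told apart.

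Levels differed widely among members, although nearly all are present in equal number in a finished particle. Per kilobase of exon, the mean level over 24 libraries ran from 1.84 to 128 CPM per kb with a median of 18.4, against a median of 89.8 for 82 cytosolic ribosomal protein genes. The medians were 20.4 CPM per kb for the large subunit and 16.7 for the small subunit, and 20.3 for members with a bacterial counterpart and 17.2 for those specific to mitochondria. Mrpl41, a large-subunit protein specific to mitochondria, had the highest level per length (128 CPM per kb). It was followed by Mrps21 (80.4), Mrpl28 (78.7), Mrpl12 (78.6), Mrpl34 (71.3) and Mrpl2 (58.9). Mrpl12 forms the stalk that recruits translation factors and is also known to bind the mitochondrial RNA polymerase. The lowest were Mrpl23 (1.84), a protein at the rim of the exit tunnel, Mrpl53 (2.57), Mrps30 (3.74), Mrps35 (4.13), Mrps10 (4.58) and Mrps18b (4.88). Exon length here joins the exons of all annotated transcripts, so this order depends in part on the annotation. Mrps35 (35.7 CPM over 8631 bases) and Mrps10 (37.0 CPM over 8079 bases) were near Mrpl34 (43.3 CPM over 607 bases) before division by length. Mrpl23 (8.98 CPM) and Mrpl53 (2.03 CPM) were low without it. Over 10% of exon bases are shared with another gene in 18 members, most in Mrpl53 (88.0%), Mrps34 (77.8%) and Mrps25 (69.8%); whether counting used strand is not given in the sources used here, so reads of such overlapping pairs may be split or lost and these levels are uncertain.

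**Figure D1:**
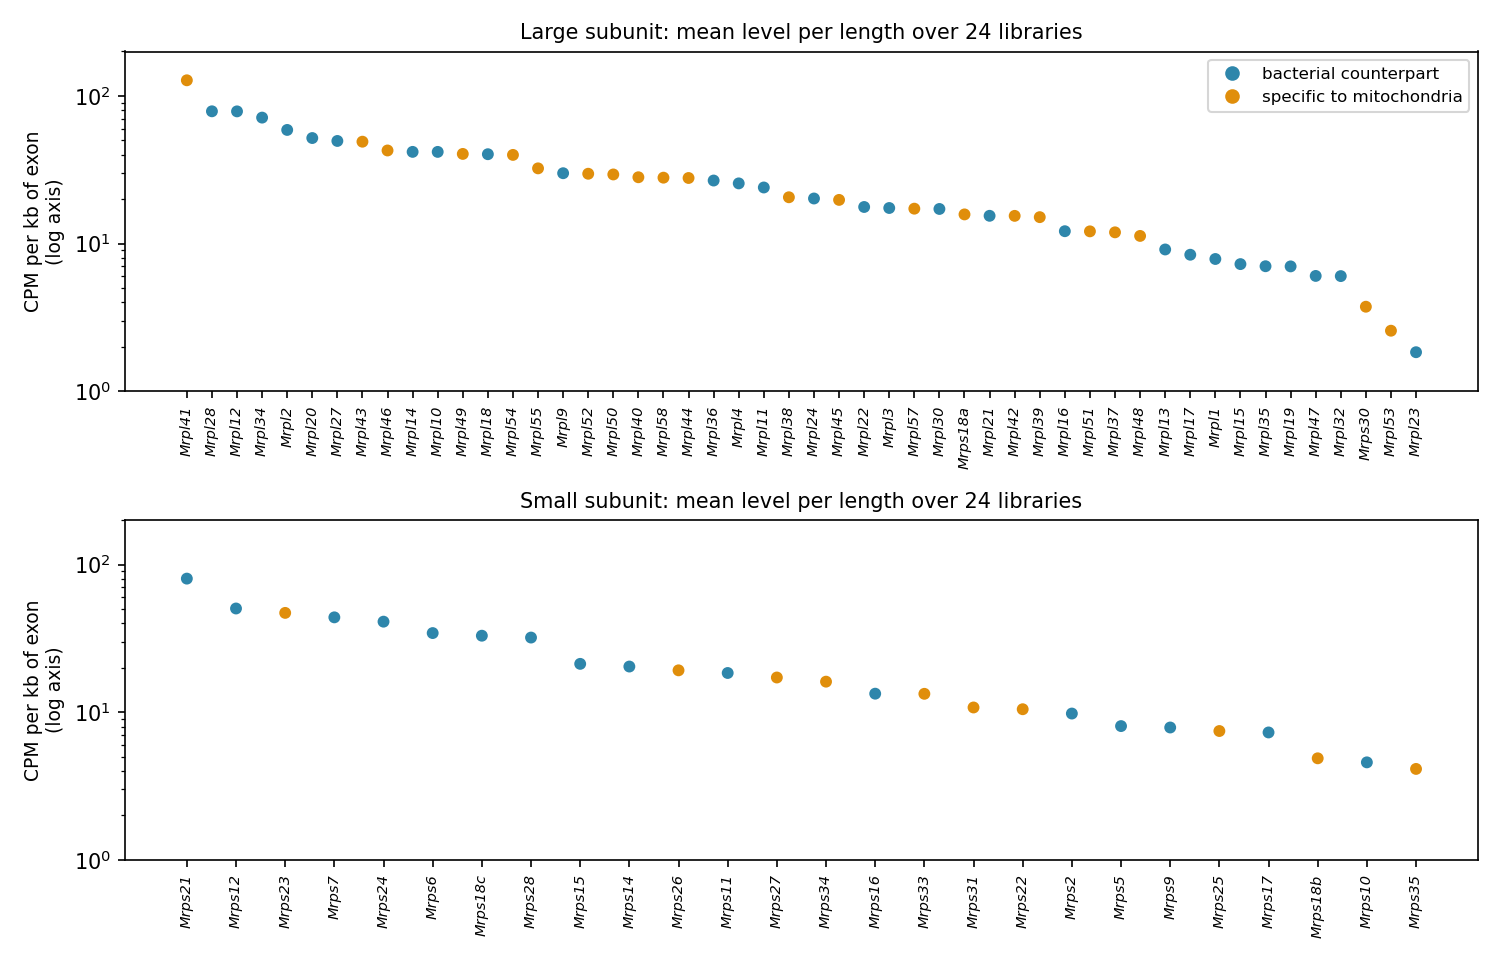
Mean level of each large-subunit (top) and small-subunit (bottom) gene over 24 libraries, in CPM per kilobase of exon on a log axis, ordered by level and coloured by origin. Mrpl41 stands highest at 128 and Mrpl23 lowest at 1.84 CPM per kb, and both origins are spread along each row.

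In cKO against Cre control, the question is whether loss of complex I function in the brain is accompanied by a change in the genes for the mitochondrial ribosome. No member passed the test in edgeR (0 of 77, against 4.87% of genes tested), and the point estimates leaned low: 65 of 77 were below 0, with a median log2 fold change of -0.09 against -0.01 for all genes tested. Both subunits leaned the same way, with 44 of 50 large-subunit members below 0 (median -0.11) and 20 of 26 small-subunit members below 0 (median -0.07). The lean was not particular to the members. Of the cytosolic ribosomal protein genes, only 11 of 82 were above 0, with a median of -0.10. At an unadjusted p under 0.05 there were 5 members (6.49%), against 18.5% of genes tested. DESeq2 called 1 of them (Mrpl35), against 7.73% of the 15003 genes with an adjusted p there, and limma-voom called 0 members against 4.85% of genes. No member's cKO and Cre control libraries were fully apart, against 2.69% of genes tested. The 95% intervals of all 77 lay within 1 log2 unit of 0, and those of 69 within 0.5. Leaving out 1 library at a time kept the median of the 77 below 0, between -0.18 (without cKO F3) and -0.04 (without cKO M3). It was also more than 1.5 times nearer to 0 without cKO M2 (-0.05), cKO F1 (-0.06), Cre control M1 (-0.05) or Cre control F2 (-0.05), and farther from 0 without Cre control F3 (-0.15).

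The member nearest to a call was Mrpl35 (chr6:71813003-71823810, mm10), a large-subunit protein with a bacterial counterpart. It ran 22.8, 27.0 and 31.9 CPM (lowest, median, highest) in cKO and 26.5, 28.2 and 31.3 CPM in cKO+NDI1, against 27.4, 30.5 and 32.1 CPM in NDI1 control and 29.6, 31.9 and 33.5 CPM in Cre control. In cKO, 5 of 6 libraries lay below every Cre control library, and so did 5 of 6 cKO+NDI1 libraries. The log2 fold change in cKO against Cre control was -0.22 ± 0.07 (SE), with an adjusted p of 0.0699 in edgeR. The value lay between -0.29 and -0.17 in every alternative. A call was made in 5 of 13 other settings and in 1 of 24 fits that left out a library, and the adjusted p over these fits reached 0.456. Among the fits with a call, the adjusted p was 0.0211 with DESeq2 and 0.0355 after a correction for gene length, which called 8.27% of genes tested. It was 0.0221 without the cKO library F2, whose level was the highest of its group.

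Among the other large-subunit members, Mrpl18, a protein of the central protuberance, ran 42.1, 49.0 and 58.6 CPM in cKO against 50.2, 59.6 and 70.7 CPM in Cre control. Here too 5 of 6 cKO libraries were below all 6 of Cre control, and the log2 fold change was -0.26 ± 0.11 (adjusted p = 0.199, edgeR). Mrpl52, specific to mitochondria, ran 23.5, 26.8 and 36.7 CPM in cKO and 22.8, 36.8 and 44.3 CPM in Cre control. Its groups overlapped over most of their range, and its log2 fold change of -0.34 ± 0.16 was the most negative of the 77 (adjusted p = 0.251). Mrpl13 (-0.33 ± 0.15) and Mrpl46 (-0.29 ± 0.14) followed; Mrpl46 also lies in the central protuberance and is specific to mitochondria. Mrps11, which shares the short divergent promoter printed above with Mrpl46, stood at 0.06 ± 0.14, and the difference between these neighbours was not tested.

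In the small subunit the most negative was Mrps18c, 1 of 3 related members named after bacterial protein S18, at 24.1, 30.8 and 40.5 CPM in cKO and 29.5, 41.3 and 45.5 CPM in Cre control. Its log2 fold change was -0.31 ± 0.15 (adjusted p = 0.269, edgeR), and the ranges overlapped. The highest estimates were those of Mrpl53 (0.18 ± 0.29), Mrps34 (0.13 ± 0.13), Mrps18b (0.13 ± 0.10) and Mrpl23 (0.11 ± 0.17), none of which passed the test (adjusted p between 0.555 and 0.824, edgeR). The first 3 of these are members with a large share of exon bases in common with another gene.

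**Figure D2:**
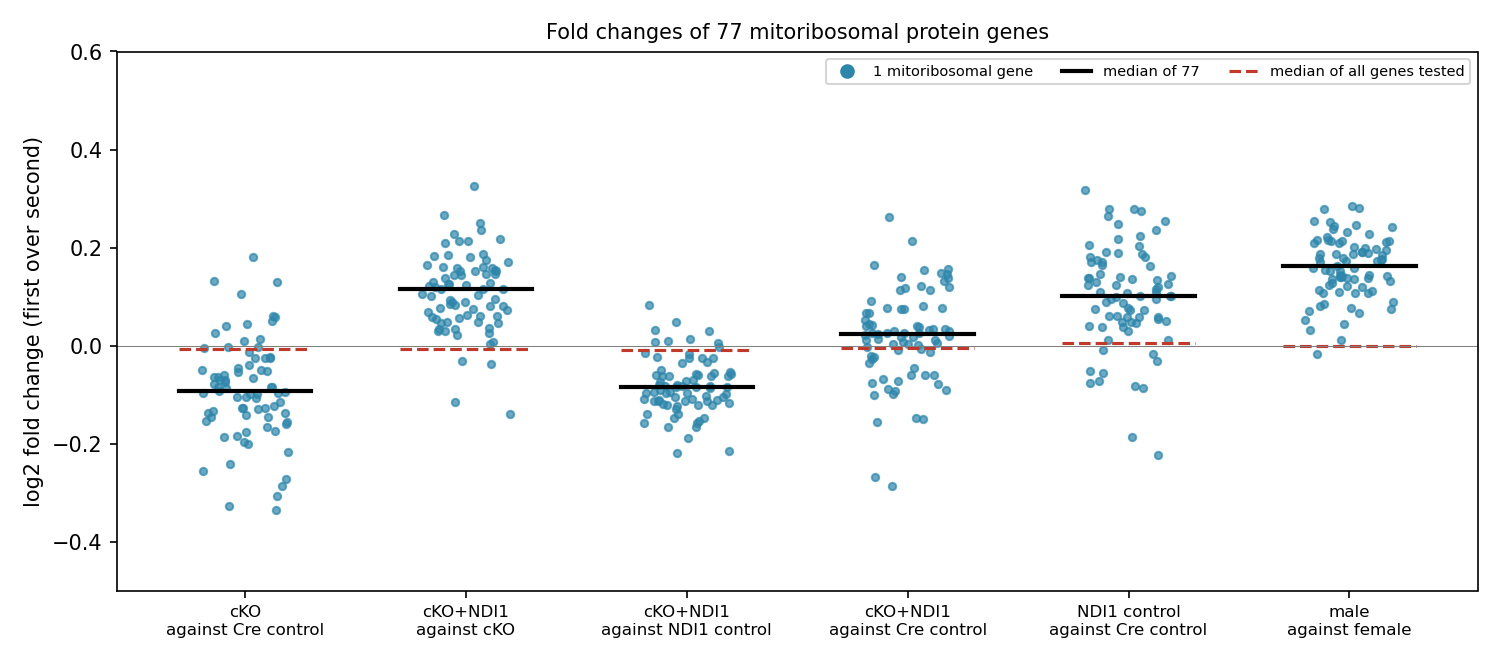
Log2 fold change of each of the 77 genes (points) in 6 comparisons, the first-named group over the second, with the median of the 77 (black line) and of all genes tested (red dashes). The medians run from -0.09 in cKO against Cre control to 0.16 in males against females, and 0 of the 77 genes passed the test in any of the comparisons shown.

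The comparison of cKO+NDI1 against cKO gave estimates in the opposite direction, and again no member passed. Here 73 of 77 were above 0 with a median log2 fold change of 0.12, against -0.01 for all genes tested, and 0 members were called in edgeR, with 0 at an unadjusted p under 0.05 (against 8.56% of genes tested) and 0 by DESeq2 and limma-voom. Of all genes tested, 0.209% were called. Leaving out 1 library at a time gave a median between 0.06 (without cKO+NDI1 F1) and 0.19 (without cKO F3), with 0.07 without either cKO M2 or cKO M3. Fitted within each sex, the median was 0.23 in males, with 72 of 77 above 0, and 0.03 in females, with 47 above 0. These fits gave an unadjusted p under 0.05 to 16 members in males (20.8%), against 11.1% of genes tested. In females they gave it to 1 member (1.30%), against 6.97%. The cytosolic ribosomal protein genes had a median of 0.06 over both sexes, with 72 of 82 above 0. Their median was 0.28 in males (81 of 82 above 0) and -0.07 in females (11 of 82 above 0). This comparison and the preceding one share the cKO libraries, so a low cKO value moves both. Mrpl54, specific to mitochondria, ran 21, 36.3 and 41.9 CPM in cKO+NDI1 and 20.8, 27.0 and 37.1 CPM in cKO, the largest estimate at 0.33 ± 0.20. Mrpl12, the stalk protein, ran 88.5, 127 and 149 CPM in cKO+NDI1 and 86.6, 101 and 138 CPM in cKO (0.25 ± 0.17). In each case 3 or fewer of 6 cKO+NDI1 libraries exceeded all cKO libraries. Mrpl42 (-0.14 ± 0.11) and Mrpl50 (-0.11 ± 0.09), both specific to mitochondria, were the most negative.

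Mrpl42 and Mrpl50 were also the lowest 2 in the comparisons with Cre control that involve NDI1. Mrpl50 (chr4:49512596-49521093) ran 51.4, 56.8 and 62.1 CPM in cKO+NDI1, 52.7, 63.0 and 75.1 CPM in cKO and 53.6, 56.3 and 74.2 CPM in NDI1 control, against 59.5, 70.8 and 76.3 CPM in Cre control. Mrpl42 (chr10:95480806-95501927) ran 43.8, 51.8 and 60.8 CPM in cKO+NDI1, 49.4, 55.1 and 71.5 CPM in cKO and 46.8, 51.8 and 67.2 CPM in NDI1 control, against 52.9, 64.6 and 72.9 CPM in Cre control. For each gene, both groups with NDI1 had the lowest medians, and the cKO median was also below that of Cre control. In cKO+NDI1, 4 of 6 libraries lay below every Cre control library for each gene. In cKO+NDI1 against Cre control the log2 fold changes were -0.27 ± 0.09 for Mrpl50 (adjusted p = 0.145, edgeR) and -0.29 ± 0.11 for Mrpl42 (adjusted p = 0.213). In NDI1 control against Cre control they were -0.19 ± 0.09 (adjusted p = 0.533) and -0.22 ± 0.11 (adjusted p = 0.536). Neither passed in edgeR, and these comparisons share the Cre control libraries.

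Over the whole set, cKO+NDI1 against Cre control gave 51 of 77 estimates above 0, a median log2 fold change of 0.02 and 0 calls in edgeR, against 1.25% of genes tested. At an unadjusted p under 0.05 there were 3 members, against 13.5% of genes, and DESeq2 and limma-voom called 0. The direction of the median rested on single libraries: it was -0.03 without Cre control F3, -0.03 without cKO+NDI1 F1 and also below 0 without Cre control M3, and at most 0.07 (without Cre control M1). Within each sex it was -0.09 in males, with 63 of 77 below 0, and 0.14 in females, with 65 above 0. An unadjusted p under 0.05 was reached by 4 members in males (5.19%), against 10.3% of genes tested, and by 0 in females, against 8.36%. The cytosolic ribosomal protein genes had a median of -0.01 over both sexes (37 of 82 above 0). Their median was -0.16 in males (1 of 82 above 0) and 0.14 in females (69 of 82 above 0). The background of 1.25% (191 genes) rested on single libraries too, at 26 genes without cKO+NDI1 M2 and 38 without Cre control M2.

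NDI1 control against Cre control gave 66 of 77 above 0, a median of 0.10 and 0 calls in edgeR, against 0.00654% of genes tested. At an unadjusted p under 0.05 there were 2 members (2.60%), against 9.20% of genes tested, and DESeq2 and limma-voom called 0. Leaving out 1 library at a time gave a median between 0.04 (without NDI1 control M2) and 0.15 (without NDI1 control F3), with 0.05 without NDI1 control M1 and 0.04 without Cre control F3. The median was 0.17 in males, with 69 of 77 above 0, and 0.01 in females, with 46 above 0. An unadjusted p under 0.05 was reached by 3 members in males (3.90%), against 7.96% of genes tested, and by 0 in females, against 4.08%. The cytosolic ribosomal protein genes had a median of 0.03 over both sexes (60 of 82 above 0). Their median was 0.13 in males (70 of 82 above 0) and -0.08 in females (14 of 82 above 0).

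cKO+NDI1 against NDI1 control gave 69 of 77 below 0, a median of -0.08 and 0 calls in edgeR, where 0% of genes tested were called. At an unadjusted p under 0.05 there was 1 member, Mrpl16 (1.30%), against 4.48% of genes tested, and DESeq2 and limma-voom called 0. Mrpl16 lies near the peptidyl transferase centre, and its log2 fold change there was -0.22 ± 0.10. The sexes gave opposite directions: the median was -0.26 in males, with 75 of 77 below 0, and 0.12 in females, with 73 of 77 above 0, and this difference was not tested. In males alone 28 members (36.4%) had an unadjusted p under 0.05 in edgeR, against 16.3% of genes tested. In females alone 1 member did (1.30%), against 2.52%. Leaving out 1 library at a time gave a median between -0.13 (without cKO+NDI1 F1 or NDI1 control F3) and -0.02 (without NDI1 control M2), with -0.03 without NDI1 control M1, -0.05 without cKO+NDI1 F3 and -0.06 without cKO+NDI1 M3. The cytosolic ribosomal protein genes had the same pattern, with a median of -0.06 over both sexes (2 of 82 above 0). Their median was -0.30 in males (0 of 82 above 0) and 0.19 in females (82 of 82 above 0).

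The interaction, the effect of the knockout with NDI1 minus that without, gave 42 estimates above and 35 below 0 with a median of 0.03. In edgeR 0 members were called, 0 had an unadjusted p under 0.05, DESeq2 and limma-voom called 0, and 0% of genes tested were called. Its median had no stable sign: it was below 0 without cKO M2, cKO M3, cKO+NDI1 F1, NDI1 control F2, NDI1 control F3, Cre control M1 or Cre control F2, down to -0.04 without cKO+NDI1 F1, and reached 0.09 without NDI1 control M2.

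**Figure D3:**
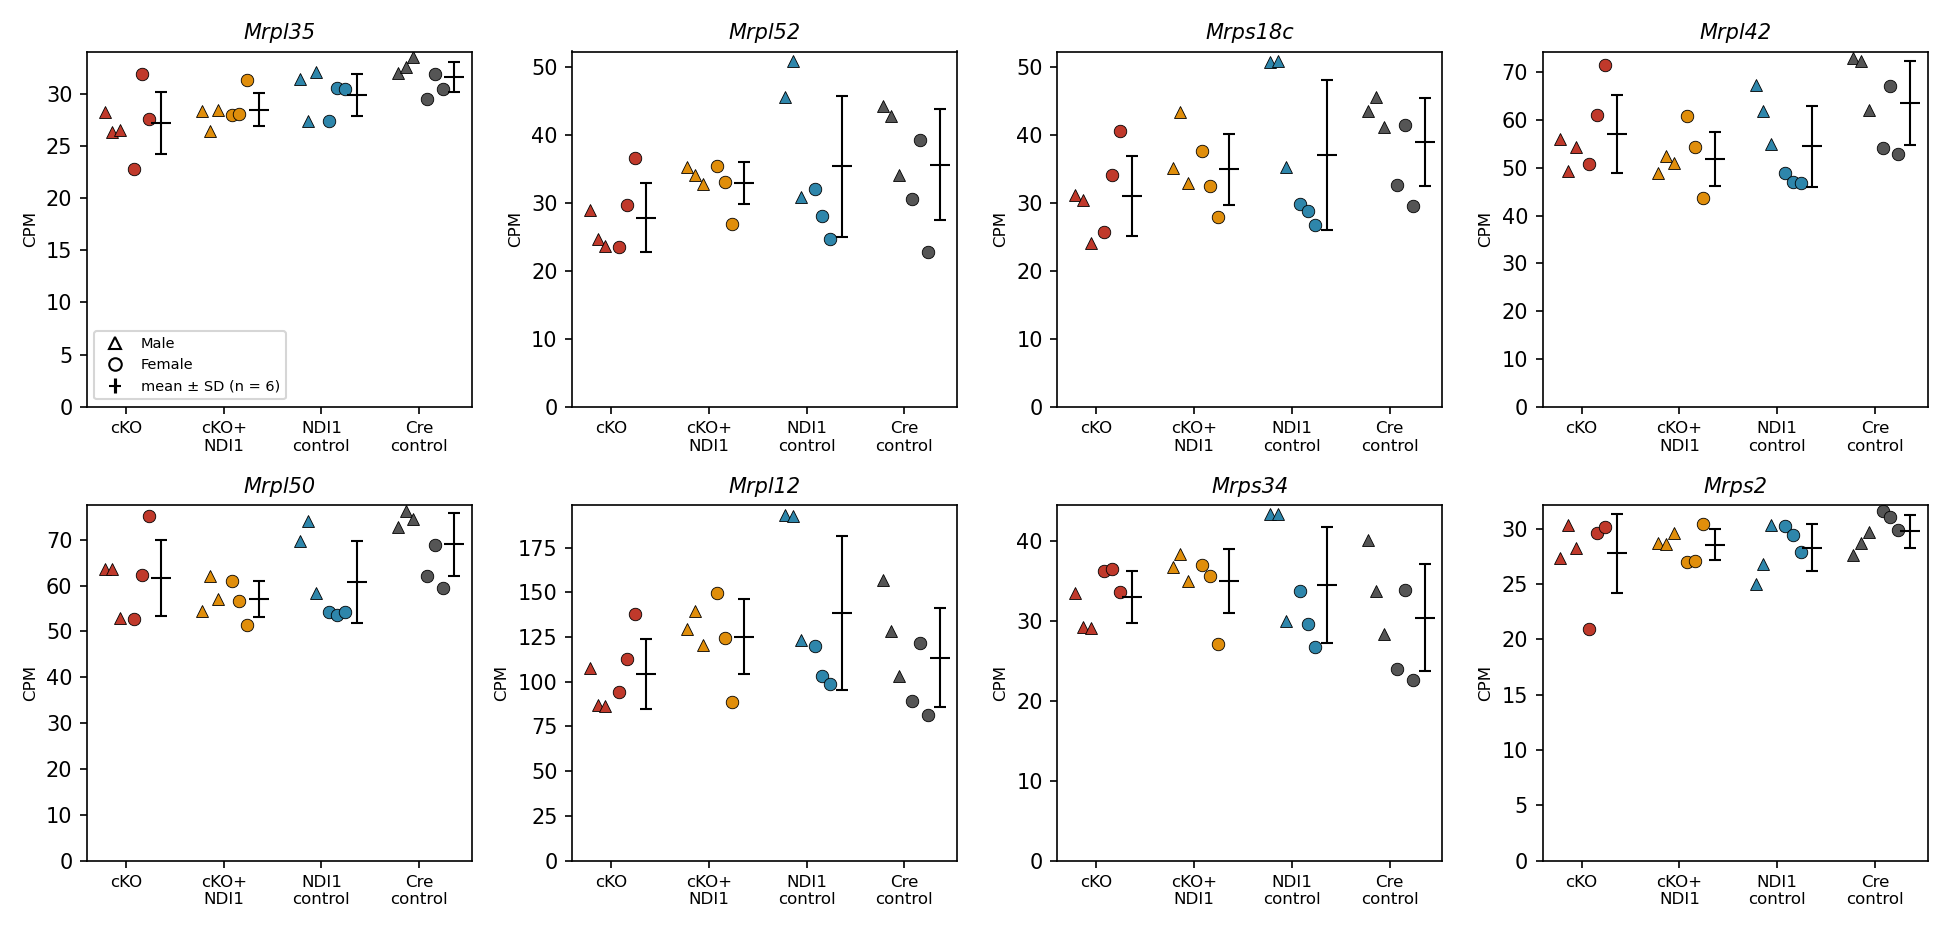
CPM of 8 members in each library, males as triangles and females as circles, with the mean and SD of 6 libraries per group on axes that start at 0. Mrpl35 is low in 5 of 6 cKO and 5 of 6 cKO+NDI1 libraries against Cre control, Mrpl42 and Mrpl50 have their lowest medians in the groups with NDI1, and Mrpl12 and Mrps34 spread more within groups than between them.

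The level of the whole set varied from library to library within each group. The mean log2 CPM of the 77 genes was 5.18, 5.36 and 5.62 (lowest, median, highest) in cKO, 5.22, 5.50 and 5.65 in cKO+NDI1, 5.26, 5.48 and 5.92 in NDI1 control and 5.11, 5.50 and 5.75 in Cre control. Within a group the libraries spanned between 0.43 (cKO+NDI1) and 0.66 (NDI1 control) log2 units, and over all groups 0.81. The highest and the lowest group mean were 0.19 apart, but a mean of 6 libraries varies less than a single library. Summed over members, the share of the library was 3209 to 4354 CPM in cKO and 3264 to 4472 CPM in cKO+NDI1, against 3416 to 5452 CPM in NDI1 control and 3073 to 4789 CPM in Cre control.

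The cytosolic ribosomal protein genes moved the same way in the same libraries. Over 24 libraries the mean of the 77 members and the mean of the 82 cytosolic genes had a Pearson r of 0.973 (Spearman rho 0.951), and 0.961 without the 2 libraries farthest from the median of the cytosolic level, the 2 highest NDI1 control males. Within each group of 6 the r was between 0.948 and 0.997. A length trend in the other genes moved with them as well: the slope of each library's log2 deviation on log2 exon length, over genes of neither ribosome, had an r of -0.980 with the members' mean and lay between -0.20 and 0.17. Libraries in which the members were high were mostly those in which short transcripts of other genes were high, and the median exon length was 2255 bases for the members against 4334 for all genes tested. The library total had an r of 0.09 with the members' mean, and the share of counts from mitochondrial DNA an r of -0.21. The points of each correlation share their library and its scaling; the part of RNA quality, tissue makeup or library preparation in this axis was not tested.

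**Figure D4:**
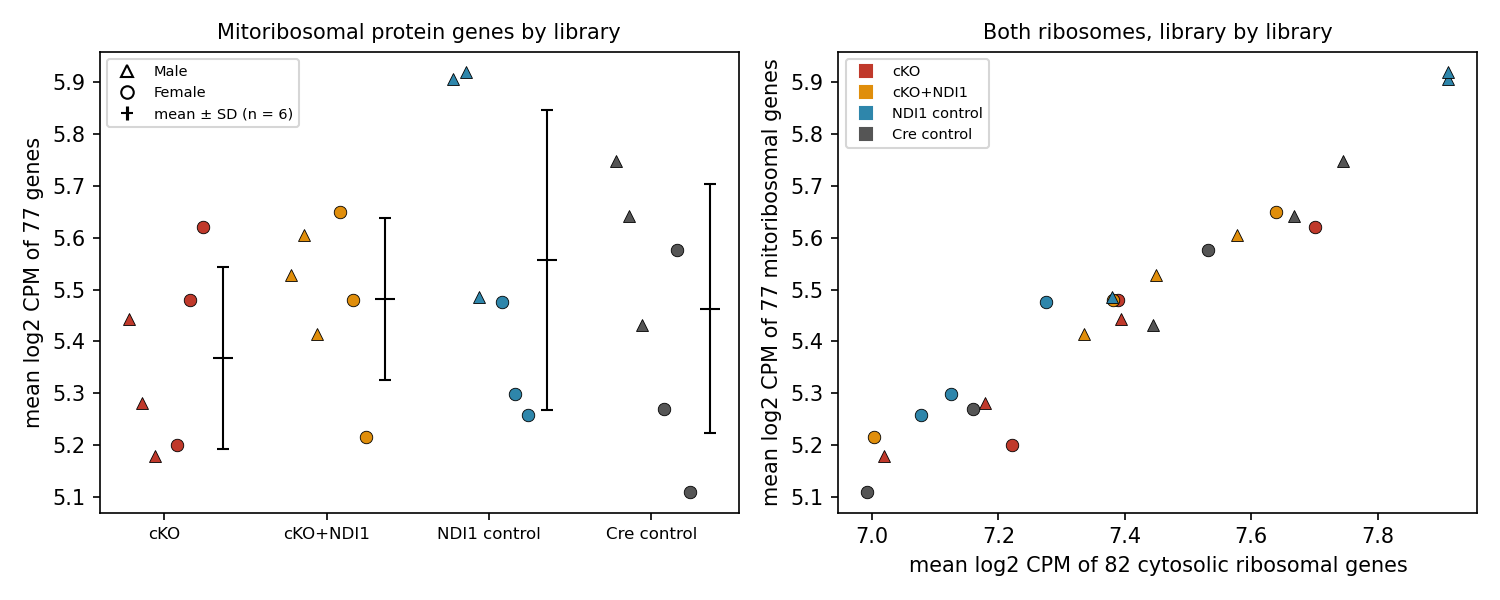
Left: mean log2 CPM of the 77 genes in each library by group, males as triangles and females as circles, with mean and SD (n = 6). Right: the same value against the mean log2 CPM of 82 cytosolic ribosomal protein genes, 24 libraries coloured by group. Libraries of each group spread along nearly the same line, from 5.11 to 5.92 on the vertical axis.

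Members followed this axis to different degrees. With group and sex removed, the log2 CPM of 51 of 77 had an r over 0.9 with the mean of the other members over 24 libraries, 69 had an r over 0.8, and the median was 0.94. Mrps16, Mrpl12, Mrps23, Mrpl14 and Mrps7 were the most alike, each with an r of 0.98. Only 3 had an r under 0.5. These were Mrps2 (-0.21), Mrps5 (0.07) and Mrpl35 (0.08), followed by Mrpl39 (0.67) and Mrpl45 (0.69), the protein that anchors the ribosome at the inner membrane. Mrps5 ran 43.7 to 58.1 CPM in cKO and 51.4 to 55.4 CPM in cKO+NDI1, against 51.0 to 56.0 CPM in NDI1 control and 51.4 to 54.5 CPM in Cre control. Its range was narrow in the other groups and wider in cKO, where 3 libraries lay below and 1 above every Cre control library. The slope on the other members had a median of 1.20 for the 39 members of at most 2255 exon bases and 0.80 for the 38 longer ones, with a Spearman rho of -0.48 between slope and exon length.

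**Figure D5:**
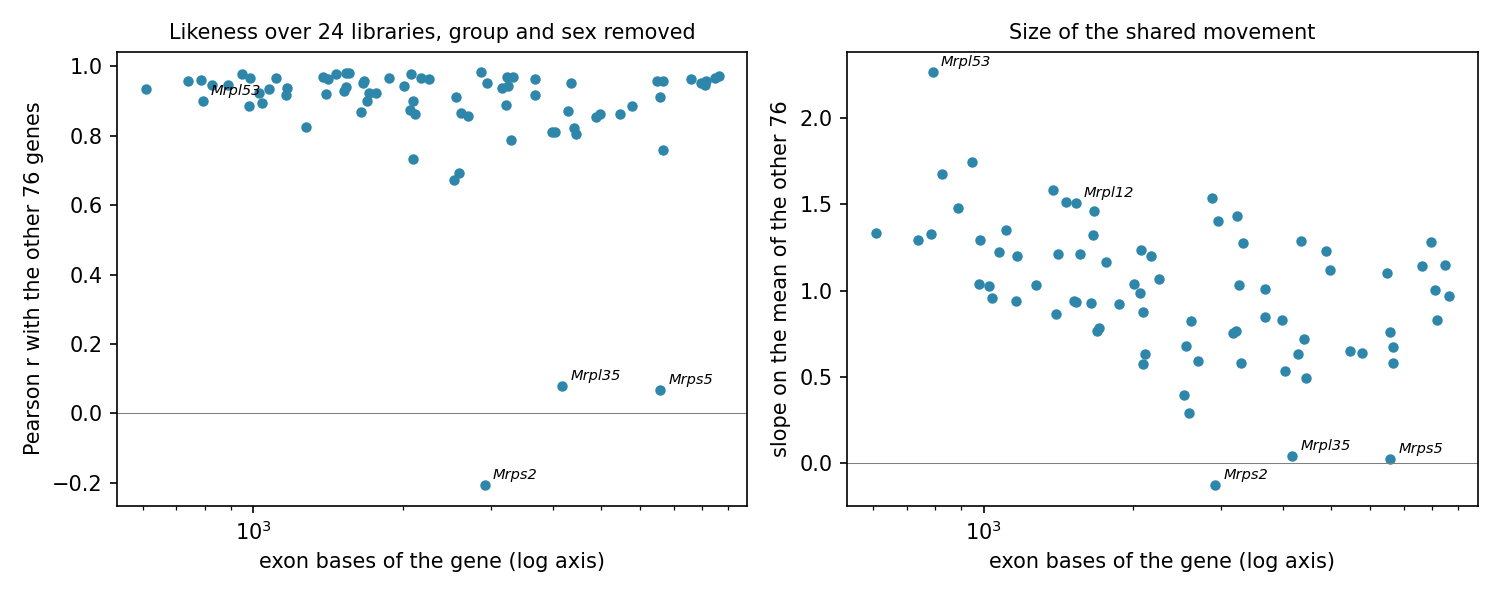
Pearson r (left) and slope (right) of each member's log2 CPM on the mean of the others over 24 libraries, group and sex removed, against its exon bases on a log axis. All but 3 genes lie above 0.5 on the left, and Mrps2, Mrps5 and Mrpl35 lie near 0 in both panels.

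In males against females, 76 of 77 members were above 0 with a median log2 fold change of 0.16, against 0.00 for all genes tested; the cytosolic genes were above 0 in 82 of 82, with a median of 0.21. In edgeR 0 members were called (0 by DESeq2 and limma-voom), against 0.085% of genes tested. With the shared axis taken out by the fits described further on, 39 of 77 were above 0 with a surrogate variable and 44 of 77 with the cytosolic ribosomal level as a covariate, with a median of 0.00 in each. Over all libraries these 2 variables had an r of 0.976 and 0.973 with the members' mean. Such fits remove most of the level that the members share, so they cannot show whether that level differs between the sexes. The mean log2 CPM of the 77 genes in males was 5.44, 5.28 and 5.18 in cKO against 5.75, 5.64 and 5.43 in Cre control. In females it was 5.20, 5.48 and 5.62 in cKO against 5.27, 5.58 and 5.11 in Cre control. In males, 2 of 3 cKO libraries lay below every Cre control library and the other lay just above the lowest, while the female ranges overlapped over most of their length. Fitted within each sex, with 3 libraries a group, cKO against Cre control had a median of -0.32 in males, with 75 of 77 below 0, and of 0.10 in females, with 56 of 77 above 0; 0 members were called in either sex in edgeR, against 0.247% of genes tested in males and 2.38% in females. At an unadjusted p under 0.05 there were 42 members in males (54.5%), against 19.9% of genes tested, and 2 in females (2.60%), against 20.2%. The cytosolic genes split by sex in the same directions. In this comparison 0 of 82 were above 0 in males (median -0.43) and 75 of 82 in females (median 0.21).

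The difference between the sexes in the knockout effect (males minus females), a contrast added after the data were seen, was below 0 in 75 of 77 members with a median of -0.45, and 0 were called, where 0% of genes tested were called in edgeR. It was not fitted with other tools. Mrpl41 (-0.81 ± 0.27) and Mrpl30 (-0.57 ± 0.16) had the smallest p-values, each at an adjusted p of 0.210, whereas Mrps2 (0.19 ± 0.15) and Mrps5 (0.15 ± 0.10) were the 2 above 0. The cytosolic genes were below 0 in 82 of 82 with a median of -0.64.

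Fits that took the shared axis out had smaller errors and made calls. With 1 surrogate variable, which had an r of 0.976 with the members' mean, the median SE in cKO against Cre control was 0.05, against 0.13 without it, and 21 members were called lower and 0 higher, where 20.8% of all genes tested were called. With the cytosolic ribosomal level as a covariate, chosen after the data were seen, 9 members were called lower and 4 higher, where 21.2% of all genes were called. Over both directions together, the members' shares were 21 of 77 (27.3%) and 13 of 77 (16.9%). By direction, all genes tested split into 1509 called higher and 1667 lower with the surrogate variable, whereas every member called there was lower. With the covariate all genes split into 1517 higher and 1728 lower. Whether the members' split differs from that of all genes was not tested. The lean of the whole set depended on which fit was used. With the surrogate variable 66 of 77 estimates were below 0 with a median of -0.09, as in the fit without it, whereas with the cytosolic covariate 43 were below and 34 above 0 with a median of -0.01. The members called lower in both fits numbered 9. Of these, Mrpl18, Mrpl35, Mrpl46, Mrpl52 and Mrps18c were also called lower after the length correction, which called no others. Mrpl13 was called lower in the 2 fits with a covariate, at -0.34 ± 0.06 with the surrogate variable and -0.24 ± 0.05 with the cytosolic level. The 4 called higher relative to the cytosolic genes were Mrpl41, Mrps11, Mrps26 and Mrps34.

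The same fits called Mrpl42 and Mrpl50 lower in cKO+NDI1 and in NDI1 control, each against Cre control. These calls were not limited to the groups with NDI1. In cKO against Cre control the surrogate fit also called both lower, where 20.8% of genes tested were called. Mrpl42 stood there at -0.15 ± 0.05 (edgeR adjusted p = 0.0469) and Mrpl50 at -0.16 ± 0.05 (adjusted p = 0.0304). The covariate fit called neither in that comparison. With the surrogate variable Mrpl42 stood at -0.33 ± 0.05 in cKO+NDI1 (edgeR adjusted p = 0.000316) and -0.31 ± 0.05 in NDI1 control (adjusted p = 0.00397), and Mrpl50 at -0.30 ± 0.05 and -0.26 ± 0.05. In NDI1 control against Cre control these 2 were the only members called with the surrogate variable (0 higher and 2 lower, against 1.85% of genes tested), while the covariate fit called 11 higher and 2 lower, against 8.34%. In cKO+NDI1 against Cre control the surrogate fit called 1 higher and 4 lower, against 10.6% of genes tested, and the covariate fit 7 higher and 3 lower, against 14.1%. Relative to the cytosolic genes Mrpl12 was among those called higher in both, by 0.24 in NDI1 control and 0.19 in cKO+NDI1.

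Between cKO+NDI1 and cKO, the surrogate fit called 6 higher and 0 lower, against 3.09% of genes tested, and the covariate fit 2 higher and 1 lower, against 1.93%. Mrpl12 and Mrpl13 were called higher in both fits, by 0.20 ± 0.04 and 0.22 ± 0.06 with the surrogate variable, and Mrpl42 was called lower with the covariate (-0.19 ± 0.05, adjusted p = 0.0383, edgeR). In cKO+NDI1 against NDI1 control neither fit called a member.

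The ribosome's RNAs differed from its protein genes. The RNAs of its small and large subunits, mt-Rnr1 and mt-Rnr2, encoded in mitochondrial DNA and named here after their values were seen, rose in cKO against Cre control. mt-Rnr1 ran 2118, 3055 and 4398 CPM in cKO and 2472, 2711 and 3249 CPM in cKO+NDI1, against 2066, 2372 and 3011 CPM in NDI1 control and 1759, 2189 and 2759 CPM in Cre control, a log2 fold change in cKO of 0.55 ± 0.13 (adjusted p = 0.0174, edgeR). mt-Rnr2 ran 4744, 6838 and 9954 CPM in cKO against 3589, 4630 and 6133 CPM in Cre control, a log2 fold change of 0.59 ± 0.15 (adjusted p = 0.0202). Ranges overlapped for both RNAs. The share of all counts from mitochondrial DNA moved the same way, at 2.07%, 2.71% and 3.35% (lowest, median, highest) in cKO and 2.04%, 2.63% and 2.99% in cKO+NDI1, against 1.78%, 2.25% and 2.89% in NDI1 control and 1.48%, 1.91% and 2.23% in Cre control. That share includes both RNAs, and its part in their rise was not tested. Without the Cre control library F2 the adjusted p was 0.0540 for mt-Rnr1 and 0.0609 for mt-Rnr2, and the log2 fold changes were 0.13 and 0.17 in males alone and 0.91 and 0.95 in females alone. These libraries were selected by polyA, which takes up ribosomal RNA only through its short tails, so their counts are not the amount of the RNAs.

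Among 26 genes for ribosome assembly and RNA modification, 1 was called in cKO against Cre control (3.85%), near the 4.87% of all genes tested. Nsun4, which methylates the small-subunit RNA and helps join the subunits, ran 9.85, 10.8 and 12.7 CPM in cKO and 11.6, 13.3 and 14.1 CPM in cKO+NDI1, against 12.4, 13.3 and 15.9 CPM in NDI1 control and 13, 13.6 and 14.3 CPM in Cre control. All 6 cKO libraries were below all 6 of Cre control, a separation seen in 2.69% of genes tested, and the log2 fold change was -0.29 ± 0.08 (adjusted p = 0.0320, edgeR). The call was lost in 11 of 37 alternatives, of which 6 left out a single library (cKO M2, M3 or F1, or Cre control M2, M3 or F1), with the estimate between -0.34 and -0.12. Of the 5 mitoribosomal proteins with another symbol, such as Dap3, 0 were called in that comparison, as were 0 of 20 translation factors, 0 of 7 genes of mitochondrial transcription, 0 of 9 nuclear activators, among them Nrf1, Gabpa and Yy1, and 0 of the 82 cytosolic genes. At an unadjusted p under 0.05 these lists held 0, 5, 1, 2 and 4 genes, against 18.5% of genes tested.

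Markers of other cells moved in the same contrasts. In cKO against Cre control, Slc1a3 of astrocytes fell (-0.28 ± 0.05, adjusted p = 0.00262, edgeR), and Pecam1 of endothelium (0.76 ± 0.09, adjusted p = 0.000151) and Mal of oligodendrocytes (0.42 ± 0.11, adjusted p = 0.0271) rose, 1 of 5 markers called in each list. The summed level of the 5 endothelial markers was 198 to 248 CPM in cKO and 165 to 206 CPM in Cre control. That of the 5 astrocyte markers was 5716 to 6573 CPM in cKO and 6350 to 7353 CPM in Cre control, and that of the 5 oligodendrocyte markers was 10533 to 16711 CPM in cKO and 11145 to 12937 CPM in Cre control, with a lower median in cKO (11801 against 11986 CPM). Of the 5 oligodendrocyte markers, 3 fell in cKO+NDI1 against cKO (Mobp, Mal and Mbp), with a summed level of 8214 to 10077 CPM in cKO+NDI1 and 10533 to 16711 CPM in cKO. None of the markers was at 0 in every library, and their part in the members' values was not tested.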

How the data were processed

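Counts per gene for 24 cerebellum libraries were used as deposited; per the submitters' processing notes they were made with bcl2fastq, Trimmomatic, STAR and HTSeq on mm10. Strand setting, annotation release and versions are not given in the sources used here. Every per-library column was used. A deposited gene length, a property of the gene model, matched the sum of exons over transcripts for 72.8% of 42462 genes matched to GENCODE M21, so exon unions of that annotation were used for levels per length. The labels give each library's group, sex and replicate number and no batch; whether the animals were littermates is not stated, and no 2 libraries of a group were copies (60 pairs were compared, and the smallest ratio of chi-square to its degrees of freedom was 4.4).

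From the counts, CPM was computed on TMM library sizes, with a prior count of 2 for logs. Genes were filtered with filterByExpr by group and tested with edgeR's quasi-likelihood F test in a joint model of 24 libraries with group and sex (R 4.3.3, edgeR 4.0.16, limma 3.58.1). The Benjamini-Hochberg adjustment ran over 15300 genes, with a threshold of 0.05. An SE is the log2 fold change divided by the root of F. DESeq2 1.42.0, limma-voom and sva 3.50.0 were used in alternatives, beside other size factors, filters, thinned counts, length offsets, single sexes, a block on the replicate number, the groups compared alone, and each library left out. The scripts were tested on simulated counts. The members and all lists were chosen with earlier results of these data known. Members named are those with the 4 highest and 4 lowest fold changes in each genotype contrast, the extremes of level and likeness, and a fixed list; Mrpl9, Mrpl18, Mrpl36, Mrpl43, Mrpl47, Mrps11, Mrps18a, Mrps25 and Mrps26, which are outside that rule, were named after their values were seen. The annotation holds 78 such genes; 1 was not analysed here.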

Additional observations from a re-analysis of the deposited data

Results flagged for a closer look

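In 176 groups of 6 libraries tested for a single value far from the rest (Dixon's criterion), 5 were marked (2.84%), and chance alone marks about 1 in 20. In cKO, Mrps2, a small-subunit protein, was 20.9 CPM in female F1, with the nearest other library at 27.3. In cKO+NDI1, female F1 was high for Mrpl39 (43.5 CPM, nearest 37.7) and Mrps22 (51.0 CPM, nearest 41.3). In the same group, female F3, the library with the lowest total count, was low for Mrpl52 (27.0 CPM, nearest 32.8) and Mrps34 (27.1 CPM, nearest 35.1).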

How the results depend on the processing

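In cKO against Cre control, 0 members were called in the model as reported, 5 with length offsets, 21 with 1 surrogate variable, 13 with the cytosolic covariate and 1 with DESeq2 (Mrpl35). With a replicate block the count was 1 (Mrpl35, adjusted p = 0.0471). The labels do not say what a number marks, and not every same-numbered pair deviated together: 19 of 36 had a correlation over 0.1 (range -0.40 to 0.51), among them all 6 pairs of M3 and 5 of 6 of M1. In 32 of 72 cases a library was most like its own number, so the numbers were not treated as pairing the samples. Leaving out each library gave 0 to 1 calls, the 1 without cKO F2, and median log2 fold changes of -0.18 to -0.04; males alone gave a median of -0.32. In cKO+NDI1 against cKO the count was 6 with the surrogate variable and 3 with the covariate. In cKO+NDI1 against Cre control it was 1 with length offsets, 5 with the surrogate variable and 10 with the covariate, and in NDI1 control against Cre control 2 and 13. The surrogate variable and the covariate remove the shared axis and lower the errors; the cause of each further call was not tested. In the remaining alternatives the counts of members called stayed 0. Of 9614 single-gene values in 6 comparisons, 9262 kept their direction and side of the threshold, 277 moved by more than the replicate spread, 57 passed the threshold only in the alternative, 18 (all of Nsun4, mt-Rnr1 or mt-Rnr2) lost it and 0 reversed.

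Over all genes, cKO against Cre control gave 745 calls, 1266 with length offsets, 3176 with the surrogate variable, 3245 with the covariate, 1159 with DESeq2, 425 without a filter, 367 with thinned counts, 263 with only the groups compared, 364 in females alone and 38 in males alone. The other genotype contrasts moved likewise: 32 calls in cKO+NDI1 against cKO (473 with the surrogate variable, 18 with thinned counts), 191 in cKO+NDI1 against Cre control (2161 with the covariate, 38 with thinned counts), 1 in NDI1 control against Cre control (1276 with the covariate, 69 with DESeq2) and 0 in cKO+NDI1 against NDI1 control (55 with the surrogate variable, 23 with DESeq2). Leaving out 1 library gave 504 to 914 calls in cKO against Cre control and, for cKO+NDI1 over cKO, 10 (without cKO+NDI1 M2) to 42. For cKO+NDI1 over Cre control it gave 26 (cKO+NDI1 M2), 38 (Cre control M2), 46 (cKO+NDI1 F2), 51 (Cre control M3), 59 (Cre control F1), 70 (cKO+NDI1 M3), 77 (Cre control F2), 81 (Cre control F3) and 104 (cKO+NDI1 M1), and at most 279; males alone gave 14 and females alone 2. In NDI1 control against Cre control it gave up to 37 (without NDI1 control M3) and 31 (without Cre control M1), in cKO+NDI1 against NDI1 control up to 3, in the interaction up to 4 (without Cre control M1), and in males against females 13 in all libraries, 33 without cKO M3 and 22 without cKO F2. Depth limits the lowest members, Mrpl53 at a mean of 28.8 counts, and 6 libraries a group gave intervals with a median half-width of 0.26 log2 units.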
